A study of Rattus norvegicus with 21 samples.

Results

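Liver RNA of early weaned Wistar rats was compared between 63 and 23 days of age, to describe how the liver transcriptome changed with postnatal age in early weaned animals. The comparison used the 6 early weaned Wistar libraries of a series of 21 rat liver RNA-seq libraries: 3 from early weaned rats at day 63 and 3 from early weaned rats at day 23. All 32623 genes of the deposited Wistar table entered, with no choice of members by their values. A further 6 Wistar libraries, 3 from control rats at day 63 and 3 from control rats at day 23, are used below only to set the early weaned change beside the control change. The labels give the Wistar strain, the tissue and the weaning group with its age. They give neither the age at weaning, the sex, the feeding state nor the hour of sampling, so a difference between the ages cannot be told apart from a difference in any of these. Whether the 3 libraries of a group stem from different animals is not stated in the labels. The p-values therefore cover only how these libraries scatter, which may be technical.

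As background, the rodent liver moves at weaning from milk, rich in fat, to chow, rich in starch, and after puberty the pattern of growth hormone pulses sets a sex-dependent programme of cytochromes P450, sulfotransferases and urinary pheromone carriers. Growth hormone also drives hepatic Igf1 and Igfals, which carry the growth signal in blood, while insulin and its absence set Igfbp1 and the genes of glucose production. Glucagon acts on the glucose-producing genes through cyclic AMP and glucocorticoids through their own receptor.

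Sequencing depth was alike in the 6 early weaned libraries, with 53165564 to 67996871 count units over all genes and 10452 to 10859 genes at 1 FPKM or more (fragments per kilobase of transcript, scaled to library depth). On log2 values of the 12 Wistar libraries, correlations were 0.969 to 0.98 between libraries of one early weaned group and 0.849 to 0.878 between the day 63 and day 23 groups. Hepatocyte markers were abundant at both ages, and of 9 defining markers 4 were higher and 3 lower at day 63: Alb, the main plasma protein of hepatocytes, was at 53907, 60137 and 56244 FPKM in the day 63 livers and at 33683, 42384 and 36825 FPKM in the day 23 livers. The Y-linked genes did not split by age alone. Eif2s3y, a translation factor subunit encoded on the Y chromosome, was at 11.43, 9.33 and 10.26 FPKM in the day 63 livers and at 10.53, 0 and 0.01 FPKM in the day 23 livers. Kdm5d, a Y-linked histone demethylase, showed the same libraries at 0, namely day 23 libraries 2 and 3. Counts are therefore also given against day 23 library 1 alone, the day 23 library with Y-linked transcripts, as an alternative chosen after the data were seen; its spread comes from the 3 day 63 libraries. Among the controls, day 63 library 2 also had Eif2s3y at 0 FPKM, and day 23 library 3 stood apart from the other day 23 libraries: its correlation with the day 63 libraries was 0.916 to 0.943, against 0.836 to 0.887 for the other day 23 libraries.

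The liver transcriptome differed broadly between the ages. Of 14552 genes tested, 5414 were called at an adjusted p below 0.05 (37.2%) by edgeR's quasi-likelihood test with Benjamini-Hochberg adjustment over all genes tested: 2708 were higher (18.6%) and 2706 lower (18.6%) at day 63. Of these, 1522 were at least 2-fold higher and 1443 at least 2-fold lower, and 551 differed at least 8-fold. The median log2 change of all genes tested was -0.012. On log2(FPKM + 1) with limma the split was less even, 2022 higher and 3248 lower (38.4% of calls higher), with a median of -0.126. With day 23 library 1 as the only day 23 library, 2088 genes were higher and 1854 lower at day 63 (25.6% of 15418 tested, 13.5% higher and 12% lower). Without day 63 library 2, 1781 genes were lower. The sets of genes described below are lists of liver functions and cell types, and each count is to be read against 18.6% in each direction. The FPKM of the 3 and 3 libraries did not overlap for 54.3% of genes tested.

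**Figure D1:**
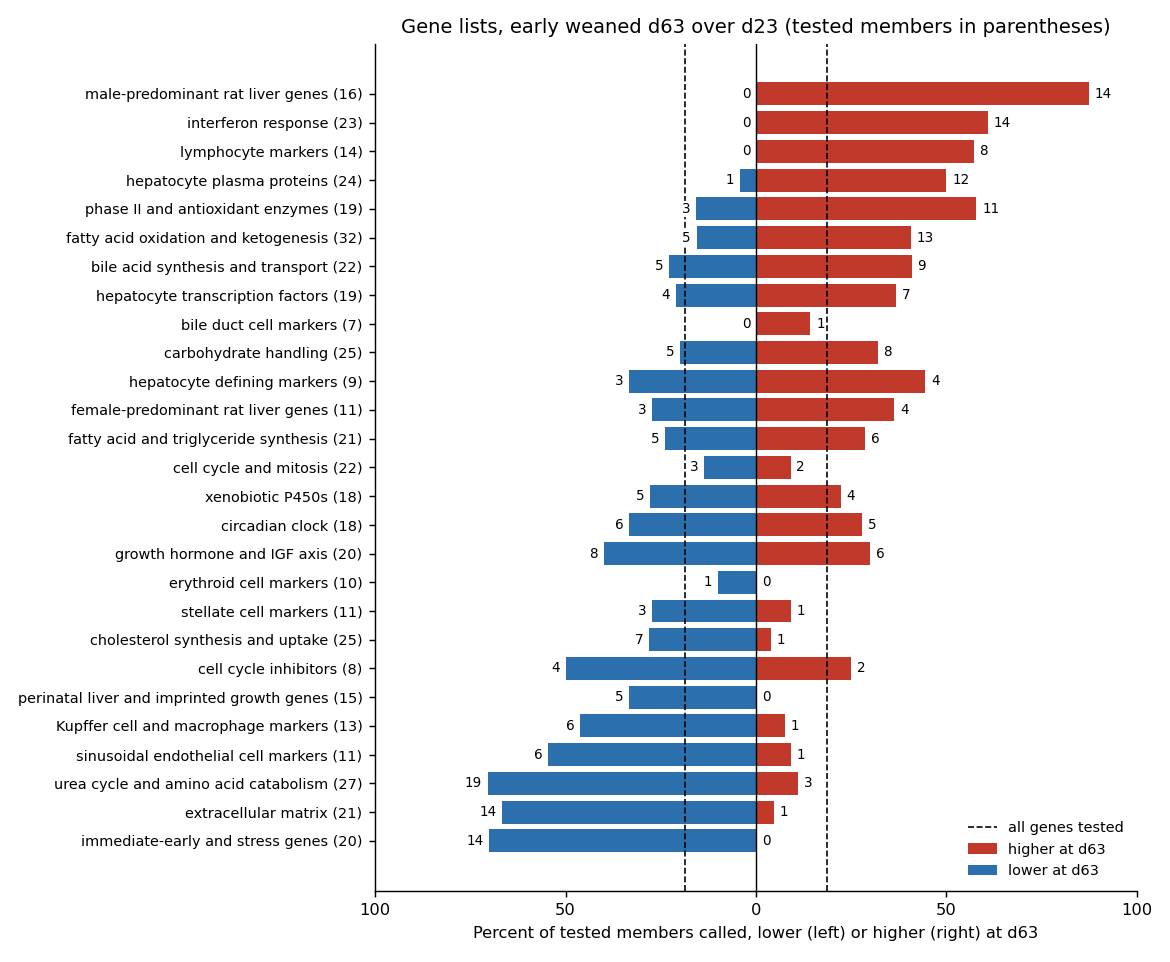
Percent of the tested members of 27 gene lists called higher (red, right) or lower (blue, left) in early weaned day 63 livers over early weaned day 23 livers (edgeR, adjusted p below 0.05), with the number of called members at each bar and the number tested in parentheses. Dashed lines mark the 18.6% of all genes tested called in each direction; 14 of 16 tested male-predominant genes lay on the higher side and 19 of 27 genes of the urea cycle and amino acid catabolism on the lower side.

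Most listed genes of the male rat liver rose. Of 16 tested table entries on the list of male-predominant liver genes, 14 rose and 0 fell at day 63, with a median log2 change of 7.28, and 12 rose when day 23 library 1 was the only day 23 library. Sult1e1, the oestrogen sulfotransferase, had 769, 776 and 922 FPKM in the day 63 livers and 0.96, 0.76 and 0.77 FPKM in the day 23 livers (log2 change 10.08 ± 0.225 SE, edgeR adjusted p = 5.59e-06). Cyp2c11, the androgen-hydroxylating P450 that marks adult male rat liver, had 649, 931 and 850 FPKM in the day 63 livers and 0, 0.43 and 0.42 FPKM in the day 23 livers (log2 change 11.59 ± 1.08 SE, edgeR adjusted p = 0.000533). Cyp2c13, a second male-predominant P450, had 1380, 1365 and 1064 FPKM in the day 63 livers and 5.27, 1.25 and 1.45 FPKM in the day 23 livers. For each of these genes the 2 groups of libraries were far apart. Day 23 library 1, which carries Y-linked transcripts, was the highest day 23 library for Sult1e1 and Cyp2c13 and the lowest for Cyp2c11, and for each it lay far below every day 63 library. Hsd3b5, a steroid dehydrogenase, and Cyp4a2, a fatty acid hydroxylase, rose as well, by log2 changes of 7.58 and 3.8. The other 2 tested entries were not called: Cyp2d4 had a log2 change of 0.87 (edgeR adjusted p = 0.0584) and Akr1c14 one of -0.02 (edgeR adjusted p = 0.902).

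The urinary proteins formed the most abundant part of this increase. Among them, the major urinary proteins and alpha-2u globulins are small lipocalins that carry scent compounds into rat urine. Rup2, urinary protein 2, had 6974, 7279 and 5418 FPKM in the day 63 livers and 1.05, 2.82 and 4.23 FPKM in the day 23 livers (log2 change 11.37 ± 0.627 SE, edgeR adjusted p = 0.000111). Mup5, a major urinary protein, had 1941, 2560 and 2449 FPKM in the day 63 livers and 0.51, 0.5 and 1.05 FPKM in the day 23 livers (log2 change 11.84 ± 0.441 SE, edgeR adjusted p = 2.23e-05). The table describes 13 entries as urinary proteins or alpha-2u globulins, 7 within chromosome 5 from 77245143 to 77903101 and 6 within chromosome 8 from 37446784 to 41661238, in the table's own coordinates for a rat build that it does not name. This set was drawn from the table's descriptions after its values were seen. Together the 13 entries held 3.75%, 4.46% and 3.85% of all FPKM in the day 63 livers and 0.000432%, 0.000953% and 0.00176% in the day 23 livers. LOC100912026, described as urinary protein 3-like, had 0 counts in every day 23 library and was at least 1260-fold higher at day 63, against a floor of 3 fragments per library. Several entries are near-identical copies, and some on chromosome 5 overlap in coordinates, so how the counts are divided among them is uncertain. Whether reads were counted to several entries was not tested, so their sum is uncertain too. In control livers the sum was 3.58%, 0.516% and 2.96% of all FPKM at day 63, the low value being the library without Y-linked transcripts, and at most 0.000746% at day 23. The entries did not move as one in that control day 63 library, with Rup2 at 2378 FPKM and Mup5 at 1.47 FPKM.

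Genes on the list of female-predominant liver genes were called in both directions, with 4 higher and 3 lower of 11 tested (4 and 1 against day 23 library 1 alone). Cyp2c7, a retinoid-metabolising P450, had 1155, 798 and 864 FPKM in the day 63 livers and 12.5, 28.5 and 42.2 FPKM in the day 23 livers, and Cyp3a9, Hao2 and Ca3 also rose. Control values went against the list for Hao2, a hydroxyacid oxidase, and Ca3, a carbonic anhydrase: control day 63 library 2, without Y-linked transcripts, had Hao2 at 13.3 FPKM and Ca3 at 25.9 FPKM, below the 155 and 207 FPKM and the 403 and 344 FPKM of the other control day 63 libraries. In that library Cyp2c12 was at 2368 FPKM, against 36.8 and 83.5 FPKM in the other control day 63 libraries. The list count therefore mixes genes that differed in opposite directions in that library. Cux2, a transcription factor of the female liver programme, fell in early weaned livers to 0.6, 0.2 and 0.24 FPKM at day 63. At day 23 it was at 12.8, 4.7 and 9.22 FPKM. Control livers had Cux2 at 12.3, 24.2 and 2.41 FPKM at day 63 and at 23.1, 14.3 and 2.67 FPKM at day 23. The difference of the 2 changes was not called (edgeR adjusted p = 0.975). Cyp2c12, the P450 that marks adult female rat liver, was at 12, 75.8 and 96.6 FPKM in the early weaned day 63 livers. In the early weaned day 23 livers it was at 347, 188 and 98.4 FPKM. The 2 groups of Cyp2c12 values lay side by side without overlap, but the difference was not called (log2 change -1.63 ± 0.754 SE, edgeR adjusted p = 0.13). Markers of sex thus differed between some libraries of the 2 ages, and their part in the sex-dependent genes was examined only through day 23 library 1.

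**Figure D2:**
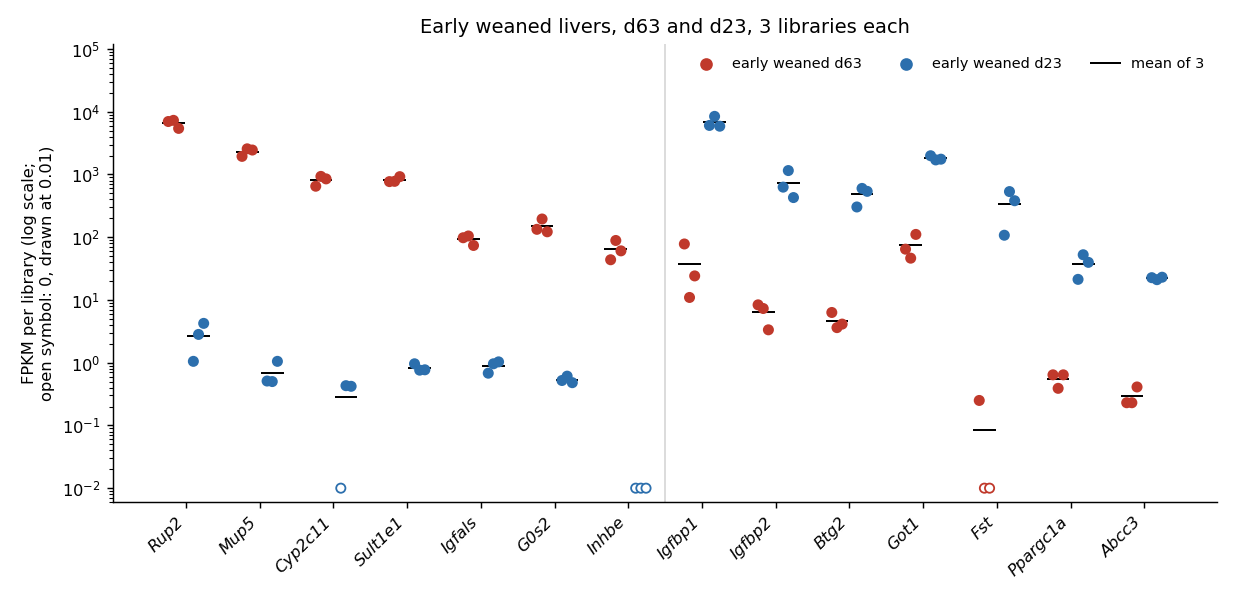
FPKM in each early weaned library on a log scale for 7 genes that rose (left) and 7 that fell (right) at day 63, with day 63 in red to the left of day 23 in blue and a black line at the mean of 3. Open symbols are libraries at 0, drawn at 0.01. The 2 groups of libraries did not overlap for any of the 14 genes, which were chosen with their values known. Of all genes tested, 54.3% did not overlap. Rup2 lay at 5418 to 7279 FPKM at day 63.

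Genes of the growth hormone and insulin-like growth factor axis were called in both directions. Of 20 tested, 6 rose and 8 fell at day 63, and 6 rose and 5 fell against day 23 library 1 alone. Ghr, the growth hormone receptor, had 80.2, 102 and 115 FPKM in the day 63 livers and 8.25, 11.6 and 10.3 FPKM in the day 23 livers (log2 change 3.43 ± 0.218 SE, edgeR adjusted p = 0.000153). Igf1, the circulating growth factor, had 151, 148 and 127 FPKM in the day 63 livers and 37.1, 29.7 and 28.4 FPKM in the day 23 livers (log2 change 2.29 ± 0.151 SE, edgeR adjusted p = 0.000176). Igfals, the acid-labile subunit that holds Igf1 in its ternary blood complex, had 98, 105 and 73.8 FPKM in the day 63 livers and 0.68, 0.96 and 1.03 FPKM in the day 23 livers (log2 change 6.81 ± 0.253 SE, edgeR adjusted p = 2.23e-05). Bcl6, Stat5a and Jak2, the last the kinase that the growth hormone receptor uses, rose too, whereas Stat5b, another transcription factor of this signal, was not called (log2 change -0.19, edgeR adjusted p = 0.439).

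Of the binding proteins, Igfbp1 and Igfbp2 fell. Igfbp1, which binds Igf1 and is repressed by insulin, fell to 77.9, 10.95 and 24.1 FPKM in the day 63 livers, against 6041, 8427 and 5873 FPKM in the day 23 livers (log2 change -7.38 ± 0.815 SE, edgeR adjusted p = 0.00089). Every day 63 library lay far below every day 23 library. Igfbp2, a second binding protein, fell to 8.35, 7.3 and 3.34 FPKM in the day 63 livers, against 628, 1153 and 428 FPKM in the day 23 livers (log2 change -6.75 ± 0.563 SE, edgeR adjusted p = 0.000373). Igfbp3, the main binding partner in adult blood, was at 33.4, 28.4 and 34.4 FPKM in the day 63 livers and at 51.9, 38.6 and 37.1 FPKM in the day 23 livers and was not called (edgeR adjusted p = 0.223), nor was Igfbp4 (log2 change -0.16). The leptin receptor Lepr, the cytokine-signal inhibitor Socs3 and the prolactin receptor Prlr also fell, by 3.22, 2.25 and 2.58 on the log2 scale, as did Cish, a growth hormone-induced inhibitor of the same family as Socs3, by 1.34, and the receptor gene Igf1r, which was at or below 0.32 FPKM in every early weaned library. Against day 23 library 1 alone the calls of Cish, Igf1r and Prlr were lost (log2 changes -0.49, -2.61 and -2.79). The growth hormone axis list shares Prlr and Cux2 with the list of female-predominant genes. Of the perinatal and imprinted growth genes, 5 of 15 tested fell and 0 rose, while 3 of 14 fell and 1, Afp, rose against day 23 library 1 alone. Peg3 fell to 3.3, 3.71 and 5.03 FPKM at day 63, against 21.6, 13.9 and 13.9 FPKM at day 23, and the fetal RNA-binding protein gene Igf2bp2 fell by 6.18 on the log2 scale. The fetal albumin relative Afp was low at both ages, 4.16, 4.99 and 4.04 FPKM at day 63 and 0.59, 6.65 and 1.18 FPKM at day 23, and was not called (edgeR adjusted p = 0.485), although without day 23 library 2 it was higher at day 63 (log2 change 2.46, edgeR adjusted p = 0.005), as against day 23 library 1 alone (log2 change 3.02, edgeR adjusted p = 0.00467).

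Genes of carbohydrate handling were called in both directions. Of 25 tested 8 rose and 5 fell, 7 rose and 2 fell against day 23 library 1 alone, and 3 fell without day 63 library 2. G6pc, the glucose-6-phosphatase that releases free glucose, fell to 95.8, 95.1 and 96.9 FPKM in the day 63 livers, against 933, 1591 and 1608 FPKM in the day 23 livers (log2 change -3.71 ± 0.249 SE, edgeR adjusted p = 0.000182). Pck1, the cytosolic enzyme that commits oxaloacetate to glucose, had 947, 1386 and 1595 FPKM in the day 63 livers and 1879, 3135 and 3308 FPKM in the day 23 livers (log2 change -0.95 ± 0.289 SE, edgeR adjusted p = 0.0382), a call that was lost against day 23 library 1 alone (edgeR adjusted p = 0.442). Ppargc1a, the coactivator of fasting gene programmes, fell to 0.64, 0.39 and 0.64 FPKM in the day 63 livers, against 21.3, 52.5 and 39.7 FPKM in the day 23 livers (log2 change -5.95 ± 0.42 SE, edgeR adjusted p = 0.000212). Fbp1, another enzyme of glucose production, was at 426 to 488 FPKM in the day 63 livers and at 520 to 560 FPKM in the day 23 livers and was not called (edgeR adjusted p = 0.578).

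The starts of the genes Igfbp1, G6pc, Pck1 and Ppargc1a are shown because these 4 genes fell together and are textbook targets of insulin, glucagon and glucocorticoids. The sequences are the RefSeq promoters of build GRCr8, 250 bases before to 50 after the annotated start, read 5′ to 3′ in the direction of transcription. Capitals mark CAAAACA, a core bound by FOXO factors, and TGACGTNA, a cyclic AMP response element, searched on both strands. Igfbp1 lies at chr14:86261027-86261326 on the plus strand, G6pc (G6pc1 in RefSeq) at chr10:86807409-86807708 on the plus strand, Pck1 at chr3:182348322-182348621 on the plus strand and Ppargc1a at chr14:63634058-63634357 on the plus strand.
Igfbp1: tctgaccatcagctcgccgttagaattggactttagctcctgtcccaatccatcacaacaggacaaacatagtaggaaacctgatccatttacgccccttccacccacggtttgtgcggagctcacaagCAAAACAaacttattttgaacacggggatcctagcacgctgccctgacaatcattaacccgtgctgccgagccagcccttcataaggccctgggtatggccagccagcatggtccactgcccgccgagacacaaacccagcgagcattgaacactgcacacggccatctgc
G6pc: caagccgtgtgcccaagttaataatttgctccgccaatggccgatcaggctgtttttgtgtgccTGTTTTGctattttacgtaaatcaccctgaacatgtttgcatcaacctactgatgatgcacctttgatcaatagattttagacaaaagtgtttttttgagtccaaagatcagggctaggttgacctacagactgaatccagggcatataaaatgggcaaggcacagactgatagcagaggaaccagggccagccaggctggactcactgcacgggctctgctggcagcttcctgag
Pck1: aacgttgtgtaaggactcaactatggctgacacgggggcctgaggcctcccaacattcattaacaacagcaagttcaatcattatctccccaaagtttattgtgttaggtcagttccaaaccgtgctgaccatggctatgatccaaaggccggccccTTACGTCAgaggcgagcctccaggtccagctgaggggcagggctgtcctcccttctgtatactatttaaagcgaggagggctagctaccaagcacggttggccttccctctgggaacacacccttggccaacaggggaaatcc
Ppargc1a: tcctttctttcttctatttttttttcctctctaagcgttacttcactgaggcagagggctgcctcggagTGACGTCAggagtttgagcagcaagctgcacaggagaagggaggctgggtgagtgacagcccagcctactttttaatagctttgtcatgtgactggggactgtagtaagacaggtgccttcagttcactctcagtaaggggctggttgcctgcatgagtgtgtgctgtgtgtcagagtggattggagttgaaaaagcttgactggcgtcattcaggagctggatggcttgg
CAAAACA began 121 bases before the start in Igfbp1 and, on the other strand, 186 bases before it in G6pc. TGACGTNA began 93 bases before the start in Pck1, on the other strand, and 181 bases before it in Ppargc1a. Among all 33469 promoters of this length, 6.28% held CAAAACA and 3.25% held TGACGTNA on either strand. Per gene, counting any of its promoters, the shares were 6.8% and 3.55% of 27457 genes. The 4 promoters shown were chosen after their values were seen, so the counts over whole lists, for genes with a RefSeq promoter, stand beside them. CAAAACA was in 1 of 5 carbohydrate genes that fell, 0 of 6 that rose and 1 of 10 not called, and in 3 of 8 growth hormone axis genes that fell, 1 of 6 that rose and 0 of 4 not called. TGACGTNA was in 1 of 5 carbohydrate genes that fell and 0 of the other 16. In the fatty acid oxidation list TGACGTNA was in 1 of 4 that fell, 2 of 9 that rose and 0 of 10 not called, and in the immediate-early list in 1 of 10 that fell and 2 of 6 not called. CAAAACA was in no gene of the fatty acid oxidation, urea cycle or immediate-early lists. TGACGTNA was in no gene of the urea cycle or growth hormone axis lists. These list counts are per gene. The motifs overlap no other capitals here, and a match describes letters in this window and is not evidence of binding.

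Among the list members that rose, Pklr, liver pyruvate kinase, had 15.8, 27.3 and 21.1 FPKM in the day 63 livers and 1.64, 4.83 and 3.2 FPKM in the day 23 livers. Ppp1r3c, a glycogen-targeting phosphatase subunit, had 40.4, 39.9 and 59.6 FPKM in the day 63 livers and 1.49, 0.69 and 1.56 FPKM in the day 23 livers (log2 change 5.37 ± 0.372 SE, edgeR adjusted p = 0.0002). Khk, ketohexokinase of the fructose pathway, and the glycogen phosphorylase Pygl rose by smaller amounts. Aldoa, the aldolase of immature liver and muscle, fell to 35.8, 35.5 and 37 FPKM in the day 63 livers, against 180, 167 and 154 FPKM in the day 23 livers.

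Most genes of amino acid breakdown and the urea cycle fell. Of 27 tested genes 19 fell and 3 rose, with a median log2 change of -0.98, and 18 fell and 2 rose against day 23 library 1 alone. Their summed level was 7040 to 8354 FPKM in the day 63 livers and 25616 to 27454 FPKM in the day 23 livers. Sds, serine dehydratase, fell to 158, 96.1 and 154 FPKM in the day 63 livers, against 2123, 1842 and 1867 FPKM in the day 23 livers (log2 change -3.7 ± 0.228 SE, edgeR adjusted p = 0.000153). Got1, the cytosolic aspartate aminotransferase, fell to 64.4, 46.3 and 111 FPKM in the day 63 livers, against 1987, 1705 and 1751 FPKM in the day 23 livers (log2 change -4.48 ± 0.354 SE, edgeR adjusted p = 0.000313). Tat, tyrosine aminotransferase, had 261, 546 and 819 FPKM in the day 63 livers and 3414, 4799 and 4218 FPKM in the day 23 livers (log2 change -2.79 ± 0.421 SE, edgeR adjusted p = 0.0027). All day 63 libraries were below all day 23 libraries for these 3 enzymes. Of all genes tested, 54.3% did not overlap in either direction.

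Within the urea cycle itself, the steps were unequal. Cps1, the mitochondrial entry enzyme, fell to 514, 483 and 600 FPKM at day 63, against 1870, 2204 and 2276 FPKM at day 23. Ass1 and Asl, which make and split argininosuccinate, fell by 2.2 and 2.77 on the log2 scale, and Arg1, which releases urea, fell by 1.22. Slc25a15, the mitochondrial ornithine carrier, fell by 2.64. The other 2 mitochondrial enzymes rose: Otc, ornithine transcarbamylase, had 218, 243 and 214 FPKM at day 63 and 127, 188 and 125 FPKM at day 23 (log2 change 0.74 ± 0.196 SE, edgeR adjusted p = 0.0225), and Nags, which makes the activator of Cps1, had a log2 change of 0.62. Hgd and Hpd of tyrosine breakdown fell by less than 1 on the log2 scale each, while Fah at the end of that pathway was not called (log2 change 0.07).

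**Figure D3:**
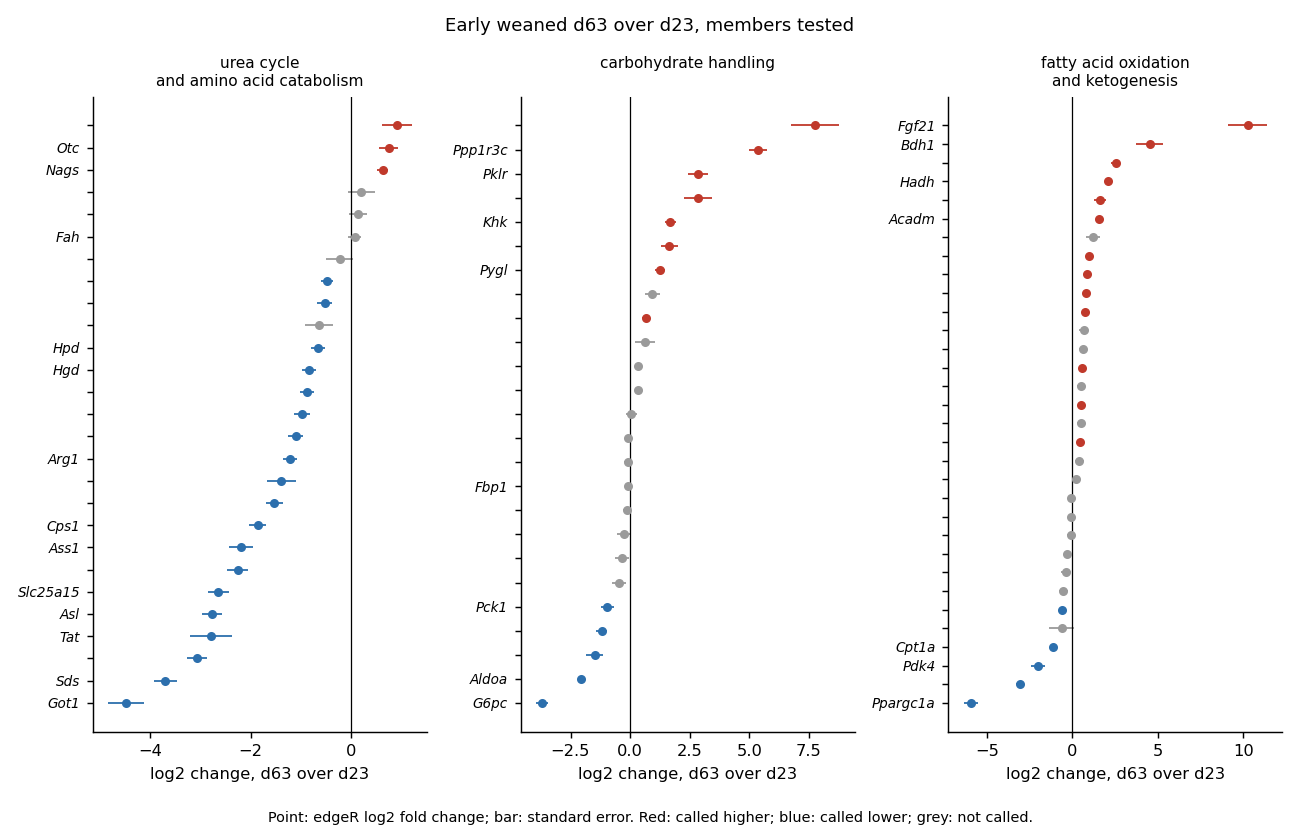
Log2 change in early weaned day 63 livers over early weaned day 23 livers for every tested member of 3 lists (points, with the standard error as bars; red called higher, blue called lower, grey not called). Amino acid genes lay mostly to the left of 0 (19 of 27 called lower), while the carbohydrate list lay on both sides, with G6pc at -3.71 and Ppp1r3c at 5.37. Gene names are given for members described in the text.

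Genes of fatty acid oxidation and ketogenesis were called higher more often than lower. Of 32 tested, 13 rose and 5 fell, and 12 rose and 3 fell against day 23 library 1 alone; in a fit with all 12 Wistar libraries 6 rose. Acadm, the medium-chain dehydrogenase of the mitochondrial spiral, was at 228, 288 and 285 FPKM in the day 63 livers and 90.2, 100 and 110 FPKM in the day 23 livers (log2 change 1.55 ± 0.159 SE, edgeR adjusted p = 0.000693). Hadh rose by a log2 change of 2.07. Bdh1, the last enzyme of ketone body synthesis on the way to hydroxybutyrate, had 104, 132 and 107 FPKM in the day 63 livers and 1.73, 12.2 and 2.34 FPKM in the day 23 livers. Cpt1a, the carnitine transferase that admits long-chain fatty acids to mitochondria, fell to 80.3, 85.9 and 103 FPKM at day 63, against 222, 235 and 196 FPKM at day 23, and Pdk4, which spares glucose from oxidation, fell by 2 on the log2 scale, a call lost against day 23 library 1 alone (edgeR adjusted p = 0.109). Fgf21, a hormone that liver secretes, had 3.66, 5.55 and 1.34 FPKM in the day 63 livers and 0 in each day 23 library, so that it was at least 13.8-fold higher at day 63. G0s2 and Pnpla2, the inhibitor and the lipase of triglyceride droplets, moved in opposite directions. G0s2 rose by 8.22 ± 0.281 SE on the log2 scale (edgeR adjusted p = 1.71e-05), with means of 150 FPKM at day 63 and 0.537 FPKM at day 23. Pnpla2 fell by 3.21 on the log2 scale (edgeR adjusted p = 5.01e-05), with means of 20.9 FPKM at day 63 and 213 FPKM at day 23.

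Lipid synthesis was mixed. Of the fatty acid and triglyceride synthesis genes 6 of 21 rose and 5 fell (8 and 2 against day 23 library 1 alone). Srebf1, the transcription factor of insulin-driven lipid synthesis, had 47.2, 42.6 and 25.3 FPKM in the day 63 livers and 7.65, 11.7 and 8.2 FPKM in the day 23 livers, and Acacb, Thrsp, Dgat2, Elovl5 and Gpam also rose. Fasn, the fatty acid synthase, was at 3.61, 6.98 and 13.9 FPKM in the day 63 livers and at 3.15, 5.64 and 5.27 FPKM in the day 23 livers, which overlap, and was not called (edgeR adjusted p = 0.164; 0.0422 without day 63 library 1). Lpin1, a phosphatidate phosphatase and coactivator, fell to 7.56, 9.99 and 22.5 FPKM at day 63, against 125, 277 and 242 FPKM at day 23.

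Of the cholesterol genes 7 of 25 fell and 1 rose, and this count depended on single libraries. It was 14 lower without day 63 library 3, and 3 lower and 3 higher against day 23 library 1 alone. Insig1, the sterol sensor partner, fell to 11.9, 21.2 and 58.1 FPKM in the day 63 livers, against 558, 804 and 402 FPKM in the day 23 livers (log2 change -4.13 ± 0.644 SE, edgeR adjusted p = 0.0031). Its relative Insig2 fell to 103, 69.3 and 78.1 FPKM in the day 63 livers, against 322, 234 and 252 FPKM in the day 23 livers (log2 change -1.56 ± 0.188 SE, edgeR adjusted p = 0.00119).

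Bile acid genes were called in both directions, with 9 of 22 higher and 5 lower (8 and 4 against day 23 library 1 alone, and 5 higher without day 63 library 2). Cyp8b1, the 12-alpha-hydroxylase that directs synthesis to cholic acid, had 207, 138 and 168 FPKM in the day 63 livers and 7.17, 13.7 and 18 FPKM in the day 23 livers (log2 change 3.85 ± 0.359 SE, edgeR adjusted p = 0.000533). Baat, which conjugates bile acids, and Akr1d1, which reduces the sterol ring, rose by log2 changes of 2.63 and 2.03. Abcc3, an export pump of the blood-facing membrane, fell to 0.23, 0.23 and 0.41 FPKM in the day 63 livers, against 22.6, 21 and 23 FPKM in the day 23 livers (log2 change -6.11 ± 0.281 SE, edgeR adjusted p = 5.65e-05). Cyp7a1, which starts bile acid synthesis and limits its rate, was lower at day 63, with 50.9, 18 and 58.9 FPKM at day 63 and 118, 338 and 246 FPKM at day 23 (edgeR adjusted p = 0.0131), but it was not called in the 12-library fit (edgeR adjusted p = 0.0756) or against day 23 library 1 alone (edgeR adjusted p = 0.169).

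Drug-metabolising P450s and their electron donors outside the sex-dependent set were called in both directions, with 4 of 18 higher and 5 lower (50% called, against 37.2% of all genes; 6 higher and 4 lower against day 23 library 1 alone). Cyp2b3 rose to 308, 341 and 339 FPKM in the day 63 livers, against 85.2, 92.5 and 96.6 FPKM in the day 23 livers. Cyp2e1, the ethanol-inducible P450, fell to 1798, 1446 and 1672 FPKM at day 63, against 2981, 2996 and 3954 FPKM at day 23, and Por, the electron donor of all microsomal P450s, fell by 1.87 on the log2 scale. Conjugating and antioxidant enzymes were mostly higher, 11 of 19 against 3 lower in both the 3-library and the single-library day 23 comparison. Ephx1, microsomal epoxide hydrolase, had 389, 411 and 332 FPKM in the day 63 livers and 126, 137 and 101 FPKM in the day 23 livers, and Gclm and Gclc, the subunits of the enzyme that starts glutathione synthesis, rose by log2 changes of 1.79 and 1.73. Gsta3 fell by 3.33 on the log2 scale while its relatives Gsta2 and Gsta5 rose by 2.58 and 2.46, and these are close paralogs whose reads may be shared.

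Secreted plasma proteins rose in 12 of 24 tested genes and fell in 1, and 9 rose and 2 fell against day 23 library 1 alone. Apoa2, an apolipoprotein of high-density lipoprotein, had 1228, 1159 and 1385 FPKM in the day 63 livers and 106, 142 and 104 FPKM in the day 23 livers (log2 change 3.55 ± 0.192 SE, edgeR adjusted p = 0.000111). C3, the central complement protein, and Ttr, which carries thyroid hormone and retinol-binding protein, rose by log2 changes of 2.49 and 1.93. Alb rose by 0.72 (edgeR adjusted p = 0.0156), a call that was lost without day 23 library 3 (edgeR adjusted p = 0.0593). Among the liver transcription factors 7 of 19 rose and 4 fell. Cebpa and Cebpb, paired factors of the same family, moved in opposite directions: Cebpa had 101, 104 and 87.9 FPKM at day 63 and 47, 26.5 and 27.8 FPKM at day 23, and Cebpb fell to 13.2, 16.2 and 32.6 FPKM at day 63, against 131, 163 and 123 FPKM at day 23. Hnf4a, a defining hepatocyte factor, rose by 0.75.

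Clock genes were called in both directions, 5 higher and 6 lower of 18 (4 higher and 3 lower against day 23 library 1 alone). Dbp, an output gene that peaks late in the rat's rest phase, had 58.2, 86.9 and 80.4 FPKM in the day 63 livers and 8.04, 13.1 and 18.1 FPKM in the day 23 livers. Its antagonist Nfil3 fell to 17.6, 10.3 and 9.47 FPKM at day 63, against 65.5, 139 and 151 FPKM at day 23. Arntl, the core activator, fell to 3, 1.2 and 0.57 FPKM at day 63, against 10.4, 7.4 and 5.8 FPKM at day 23. The hour of sampling is not in the labels, and its part in these differences cannot be told apart from age.

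Immediate-early and stress genes were lower at day 63, 14 of 20 with 0 higher and a median log2 change of -2.13, and 9 were lower against day 23 library 1 alone. Gadd45b, a stress-induced regulator of growth arrest, fell to 3.84, 2 and 6.18 FPKM in the day 63 livers, against 275, 310 and 240 FPKM in the day 23 livers (log2 change -5.96 ± 0.449 SE, edgeR adjusted p = 0.000259). Ddit4, an inhibitor of mTORC1 signalling that glucocorticoids induce, fell to 2.28, 3.18 and 2.55 FPKM in the day 63 livers, against 121, 179 and 269 FPKM in the day 23 livers (log2 change -6.01 ± 0.358 SE, edgeR adjusted p = 0.000145). Myc, the growth-promoting transcription factor, fell to 1.24, 1.46 and 2.45 FPKM at day 63, against 40.9, 103 and 97.5 FPKM at day 23. The metallothioneins Mt1 and Mt2A, which bind zinc, fell by 2.46 and 2.35 on the log2 scale, and Ppp1r15a, a stress-induced phosphatase subunit, by 3.81. Egr1, Ier2 and Ddit3, responders of the same general kind, were not called (log2 changes -0.64, -0.14 and -0.12). Low values also occurred at day 23: control day 23 library 3 had Gadd45b at 12.8, Ddit4 at 5.62 and Myc at 5.3 FPKM. The other control day 23 libraries had 332 and 398, 150 and 172, and 114 and 96 FPKM. Igfbp1 was at 473 FPKM in control day 23 library 3, against 7721 and 5747 FPKM. Cyp2c11 did not differ in this way (0.35 FPKM, against 0.19 and 0.38 FPKM). What set that library apart was not tested.

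Of 8 tested inhibitors of the cell cycle 4 fell and 2 rose at day 63, and 1 rose without any one library other than day 23 library 3. Btg2, an antiproliferative gene, fell to 6.31, 3.62 and 4.12 FPKM in the day 63 livers, against 303, 599 and 538 FPKM in the day 23 livers (log2 change -6.56 ± 0.383 SE, edgeR adjusted p = 0.000137). Cdkn1a, the p21 inhibitor of cyclin-dependent kinases, fell to 0.62, 1.03 and 1.14 FPKM in the day 63 livers, against 78.1, 32.8 and 26.9 FPKM in the day 23 livers (log2 change -5.47 ± 0.516 SE, edgeR adjusted p = 0.000546). Of 22 tested cell cycle genes, 2 rose and 3 fell, a smaller share than the 18.6% of all genes in each direction. Tpx2, the member of smallest p, had 0.68, 0.73 and 0.66 FPKM at day 63 and 0.07, 0.04 and 0.13 FPKM at day 23. Its rise (log2 change 3.2, edgeR adjusted p = 0.00194) was not called in the 12-library fit (edgeR adjusted p = 0.0726). Cdca8 rose by 4.87 on the log2 scale and was at or below 0.82 FPKM in every early weaned library. The proliferation marker Mki67 was at 0.04, 0.09 and 0.07 FPKM at day 63 and at 0.05, 0.02 and 0.09 FPKM at day 23, and Pcna, the sliding clamp of replication, fell to 10.2, 9.21 and 9.56 FPKM at day 63, against 18.4, 15.9 and 18.7 FPKM at day 23, a call that was lost in the 12-library fit (edgeR adjusted p = 0.0763).

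Interferon-responsive genes rose. Of 23 tested 14 rose and 0 fell, with a median log2 change of 1.77, and 15 rose against day 23 library 1 alone. The 3 members of smallest p act in antigen presentation. Psmb8, a subunit of the immunoproteasome, had 11.3, 13.2 and 10.7 FPKM in the day 63 livers and 0.87, 1.38 and 1.08 FPKM in the day 23 livers (log2 change 3.52 ± 0.22 SE, edgeR adjusted p = 0.000153). B2m, the light chain of class I histocompatibility molecules, had 707, 841 and 792 FPKM in the day 63 livers and 190, 200 and 175 FPKM in the day 23 livers (log2 change 2.18 ± 0.146 SE, edgeR adjusted p = 0.000182). Tap1, a subunit of the peptide transporter that loads them, had 3.76, 5.15 and 4.5 FPKM in the day 63 livers and 0.85, 1.01 and 0.78 FPKM in the day 23 livers (log2 change 2.47 ± 0.199 SE, edgeR adjusted p = 0.000326). Irf1, a transcription factor of the response, and Psmb9, a further immunoproteasome subunit, rose as well, by log2 changes of 1.57 and 2.92. Of the antiviral effectors, Mx1 had 1.6, 2.77 and 2.51 FPKM at day 63 and 0.21, 1.98 and 0.05 FPKM at day 23 and was not called (edgeR adjusted p = 0.247), and Ifit2 had a log2 change of 0.03.

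The starts of Psmb8, Tap1 and B2m are shown because these are the 3 genes of smallest p on the interferon list. The RefSeq promoters of build GRCr8 lie at chr20:4656982-4657281 on the minus strand for Psmb8, chr20:4668494-4668793 on the minus strand for Tap1 and chr3:129549080-129549379 on the plus strand for B2m. Capitals mark the core of the interferon-stimulated response element, GAAA and GAAA with any 2 bases between them, searched on both strands and read as TTTC and TTTC on the other strand.
Psmb8: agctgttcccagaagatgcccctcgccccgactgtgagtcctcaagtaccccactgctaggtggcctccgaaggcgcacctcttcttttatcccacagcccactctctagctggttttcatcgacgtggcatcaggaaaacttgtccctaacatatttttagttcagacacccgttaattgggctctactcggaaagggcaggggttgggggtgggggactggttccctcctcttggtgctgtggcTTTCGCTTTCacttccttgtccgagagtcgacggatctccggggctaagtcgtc
Tap1: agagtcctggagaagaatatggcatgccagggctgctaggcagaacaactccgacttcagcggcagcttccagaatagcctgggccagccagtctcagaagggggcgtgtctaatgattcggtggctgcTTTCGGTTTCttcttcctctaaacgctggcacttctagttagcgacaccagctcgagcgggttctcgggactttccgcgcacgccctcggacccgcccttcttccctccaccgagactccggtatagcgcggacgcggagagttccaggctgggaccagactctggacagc
B2m: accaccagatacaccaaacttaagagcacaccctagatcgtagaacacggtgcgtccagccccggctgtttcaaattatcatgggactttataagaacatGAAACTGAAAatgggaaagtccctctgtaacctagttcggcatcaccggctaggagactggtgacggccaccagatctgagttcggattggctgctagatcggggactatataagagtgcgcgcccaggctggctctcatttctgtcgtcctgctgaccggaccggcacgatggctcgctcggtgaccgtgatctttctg
The element began 4 bases before the start in Psmb8, 121 bases before it in Tap1 and 150 bases before it in B2m. It was present on either strand in 3.92% of all 33469 promoters of this length, and in 4.12% of 27457 genes, counting any promoter of a gene. Of the genes on the interferon list with a RefSeq promoter, 9 of 11 that rose and 3 of 6 that were not called held it. A match is a description of these letters and no measure of factor binding.

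Markers of other liver cells changed alongside these groups; in whole tissue, fewer cells of a type and less RNA per cell cannot be told apart. Lymphocyte markers rose in 8 of 14 tested genes and fell in 0, with a median log2 change of 2.17, and 5 rose against day 23 library 1 alone. Their summed level was 83.8 to 157 FPKM in the day 63 livers and 29.8 to 34.8 FPKM in the day 23 livers, most of it Cd74, the class II invariant chain, with 132, 101 and 68.2 FPKM at day 63 and 17.4, 21.6 and 18.8 FPKM at day 23. Cd8a, a marker of cytotoxic T cells, had 1.17, 1.12 and 1.07 FPKM at day 63 and 0.08, 0.32 and 0.15 FPKM at day 23. The T-cell receptor subunit gene Cd3e stayed low, at 0.19, 0.19 and 0.1 FPKM at day 63 and 0.11, 0.22 and 0.07 FPKM at day 23, and was not called (edgeR adjusted p = 0.65); Cd8b and Gzmb were at 0 in all 6 libraries. The part of these cells in the interferon list's increase was not tested.

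Extracellular matrix genes fell, 14 of 21 with 1 higher (9 lower and 1 higher against day 23 library 1 alone), and their summed level was 339 to 424 FPKM in the day 63 livers and 740 to 773 FPKM in the day 23 livers. Col4a1 and Col4a2, the chains of basement membrane collagen, fell by 1.32 and 1.5 on the log2 scale. Col3a1, a fibrillar collagen, fell to 60.2, 47.6 and 47.7 FPKM at day 63, against 106, 109 and 100 FPKM at day 23 (log2 change -0.89 ± 0.135 SE, edgeR adjusted p = 0.00271). Markers of sinusoidal endothelium fell in 6 of 11 tested genes and rose in 1 (3 lower and 0 higher against day 23 library 1 alone), with sums of 69.1 to 103 FPKM at day 63 and 139 to 173 FPKM at day 23. Lyve1, the hyaluronan receptor of these cells, fell to 14.1, 13.7 and 10.8 FPKM at day 63, against 47.7, 34.8 and 45.6 FPKM at day 23. Of the stellate cell markers 3 of 11 fell and 1 rose, led by the proteoglycan gene Dcn, and 1 fell without any one of day 23 libraries 2 or 3 or day 63 libraries 1 or 2, with sums of 154 to 161 FPKM at day 63 and 167 to 194 FPKM at day 23. Kupffer cell markers fell in 6 of 13 and rose in 1, with sums of 364 to 471 FPKM at day 63 and 520 to 640 FPKM at day 23, and only 3 fell without any one of day 23 libraries 1 or 2 or day 63 libraries 1 or 2. The scavenger receptors Cd163 and Marco were among those that fell, Marco not in the 12-library fit (edgeR adjusted p = 0.0544), while Clec4f and Cd68, which define and mark these cells, were not called (log2 changes 0.09 and -0.06).

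**Figure D4:**
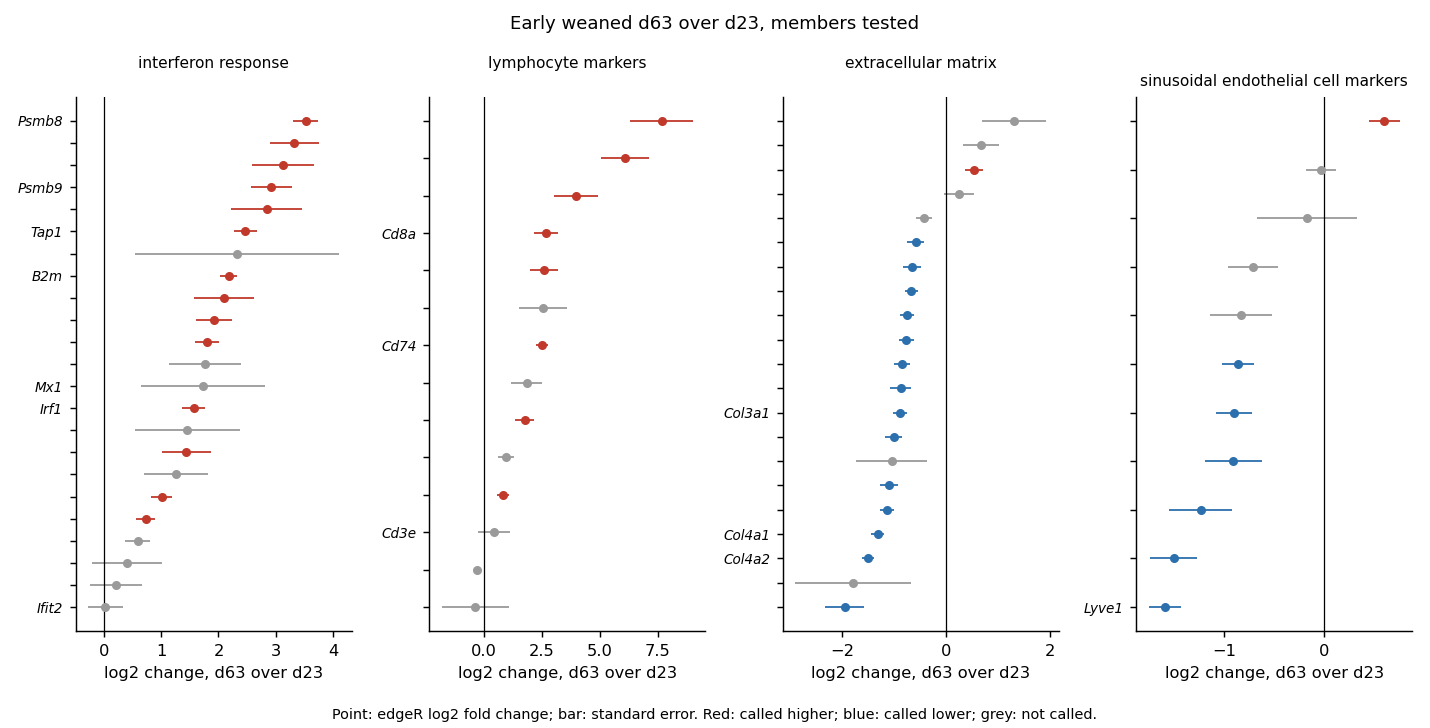
Log2 change in early weaned day 63 livers over early weaned day 23 livers for every tested member of 4 lists (points, with the standard error as bars; red called higher, blue called lower, grey not called). Called interferon and lymphocyte genes lay to the right of 0 (14 of 23 and 8 of 14), and most matrix and endothelial genes to the left (14 of 21 and 6 of 11 called lower); gene names are given for members described in the text.

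Red cell genes rested on 1 library. The haemoglobin chain Hba-a2 had 948, 236 and 224 FPKM in the day 63 livers and 1210, 1391 and 1007 FPKM in the day 23 livers and was not called (edgeR adjusted p = 0.111). Without day 63 library 1, its high day 63 library, the call was made (log2 change -2.23, edgeR adjusted p = 0.00191), and 6 of the erythroid markers fell in place of 1 of 10 tested. Hba-a3, a further alpha-globin entry that may share reads with the others, was at 0 in every early weaned day 63 library. It was at 29.7, 55.4 and 29.4 FPKM in the early weaned day 23 livers, at least 78-fold lower at day 63. In control livers it had 22.7, 3.48 and 56.6 FPKM at day 63 and 64, 51.5 and 35.2 FPKM at day 23. The difference of the 2 changes was not called (edgeR adjusted p = 0.304). Neutrophil and bile duct markers were low, with sums of 0.63 to 7.4 and 14.9 to 20.2 FPKM at day 63 and of 5.49 to 7.59 and 12.3 to 16.7 FPKM at day 23; 0 of 5 neutrophil markers were called, and of 7 bile duct markers 1 was, as higher.

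Several other genes changed by large factors. Inhbe, the activin E subunit that liver secretes, was at 0 counts in every day 23 library, averaged 64.3 FPKM at day 63 and was at least 1100-fold higher. Nox4, an oxidase that makes hydrogen peroxide, was at 0 at day 23, averaged 9.79 FPKM at day 63 and was at least 230-fold higher. In control day 63 library 2, without Y-linked transcripts, Nox4 was at 0.02 FPKM, against 8.96 and 15.37 FPKM in the other control day 63 libraries. Fst, follistatin, which binds activins, averaged 0.0833 FPKM at day 63 and 341 FPKM at day 23 (log2 change -11.8 ± 1.23 SE, edgeR adjusted p = 0.000723). Il17rb, a cytokine receptor, averaged 1.82 FPKM at day 63 and 50.3 FPKM at day 23 (log2 change -4.65 ± 0.15 SE, edgeR adjusted p = 1.5e-05). Elovl3, a fatty acid elongase, and Il22ra1, the receptor of interleukin 22, were at 0 counts in every day 63 library and were at least 26.5-fold and at least 54.6-fold lower. For each of these 6 genes the 2 groups of libraries did not overlap. They were chosen by these same values, so this adds no support, and 54.3% of all genes tested did not overlap. Of all calls, 63 of the higher genes had a day 23 group wholly at 0 and 49 of the lower genes a day 63 group wholly at 0, and 527 calls fell on entries without a gene symbol.

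The change with age was set beside that of control livers to ask whether early weaned livers changed differently. Control livers gave 281 calls at day 63 over day 23 (1.92% of 14647 tested, 1.11% higher and 0.806% lower) with all 6 control libraries, and 5459 (36% of 15149 tested, 18% in each direction) without control day 23 library 3. It was 0 without any one of control day 63 library 1 or control day 23 libraries 1 and 2. Among genes tested in both, 241 were called in the same direction, 4.53% of the early weaned calls and 87% of the control calls, and 1 in the opposite direction. Without control day 23 library 3, 3765 were called in the same direction, 69.8% of the early weaned calls and 70.6% of the control calls, and 3 in opposite directions. Across 14235 genes the log2 changes in early weaned and control livers correlated at 0.778, and at 0.802 across 14409 genes without that library, with no p because genes are not independent replicates. The early weaned calls outnumbered the control calls with all libraries in, but a call in one and not in the other is no test of a difference. By list, without control day 23 library 3, the control livers had 2 higher and 19 lower of 27 tested urea cycle and amino acid genes, 20 higher and 0 lower of 23 interferon genes, and 1 higher and 15 lower of 22 matrix genes. With all 6 control libraries these counts, higher and lower, were 0 and 5 of 27, 11 and 0 of 23, and 0 and 5 of 22. Control day 23 library 3 was left out after its values were seen. Of 16 male-predominant entries 5 were called higher in the controls without that library, and 2 of 14 with all 6 control libraries. Control day 63 library 2 lacks Y-linked transcripts.

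The test of the difference itself, the change in early weaned livers minus the change in control livers over all 12 Wistar libraries, called 1 of 15416 genes (0.00649%) by edgeR at an adjusted p below 0.05. At an unadjusted p below 0.05 there were 727 genes (4.72%), and DESeq2 called 46. Leaving out single libraries gave 0 to 4 calls: 0 without any one of control day 63 libraries 1 or 3, control day 23 libraries 1 or 2 or early weaned day 23 library 2, and the replicate block also gave 0. The called gene was AABR07070810, an entry without a gene symbol at chromosome 8 from 85489553 to 85490050 in the table's coordinates. It had 80.2, 55.15 and 65.9 FPKM in early weaned day 63 livers and 30.3, 31.65 and 26.9 FPKM in early weaned day 23 livers. In control livers it had 74.5, 55.05 and 67.4 FPKM at day 63 and 123, 153 and 114 FPKM at day 23. Its values overlapped between early weaned and control livers at day 63 and were lower in early weaned than in control livers at day 23, and the 2 changes differed by 2.27 on the log2 scale (edgeR adjusted p = 0.0319). Zbtb16, a transcription factor that glucocorticoids induce, fell in early weaned livers to 0.39, 0.19 and 0.86 FPKM at day 63, against 7.63, 16.7 and 17.9 FPKM at day 23, while control livers had 13.1, 14.7 and 6.09 FPKM at day 63 and 11.4, 11.3 and 4.49 FPKM at day 23; the difference of the changes was not called (edgeR adjusted p = 0.296). No list above had a member with a called difference between the early weaned and the control change. Without control day 23 library 3 the test called 3 genes: AABR07070810, Slc18b1 and LOC103692171, the last at 0 FPKM in all early weaned day 63 livers and at 8.47, 5.48 and 6.53 FPKM in early weaned day 23 livers. In control livers LOC103692171 had 8.63, 10.42 and 8.22 FPKM at day 63 and 7.89, 7.29 and 0 FPKM at day 23, the 0 being the library left out, and with that library in the difference was not called (edgeR adjusted p = 0.725).

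**Figure D5:**
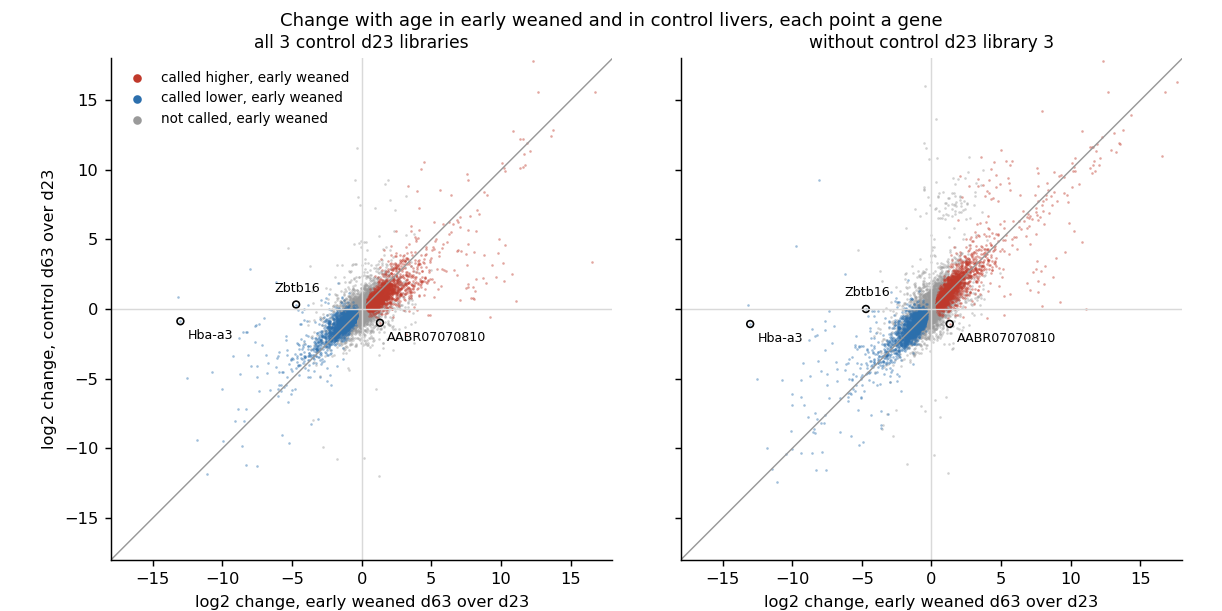
Log2 change at day 63 over day 23 in early weaned livers (horizontal) and in control livers (vertical), each point a gene, with all control libraries (left) and without control day 23 library 3 (right); colours give the early weaned call and the grey line marks equal change. The changes were correlated across genes in both panels (r = 0.778 and 0.802). The regression slope of control on early weaned change was 0.68 with all control libraries and 0.884 without control day 23 library 3. Both slopes were less steep than the line of equal change. Circled are 3 genes named in the text.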

How the data were processed

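Liver RNA was extracted on columns and made into mRNA libraries with a template-switching kit, per the labels' protocols. Per the file headers, the authors deposited estimated counts together with FPKM for every gene in every library. For the aligner, the counter and the strandedness: not given in the sources used here. A mouse build, GRCm38 (mm10), stands in the submitters' processing notes, whereas the table holds rat gene identifiers; the rat build is not named. Deposited counts are whole numbers, and 42.1% of values from 4 to 20 are multiples of 4. The share to be expected without a unit of 4 was not computed. As an assumption, 1 fragment was taken as about 4 units. The floor of a group at 0 was taken as 12 units (3 fragments) per library, which covers counting error only.

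Counts were tested with edgeR 4.0.16 in R 4.3.3: TMM normalization, filterByExpr with a minimum count of 10, quasi-likelihood F test, Benjamini-Hochberg adjustment over all genes tested, threshold 0.05. The early weaned fit held the 6 early weaned libraries and the difference of changes all 12 Wistar libraries. SE is the log2 change divided by the root of F. Scripts were tested on simulated data. Alternatives were DESeq2 1.42.0, limma 3.58.1 on log2(FPKM + 1) and log2(FPKM + 0.1), other normalizations and filters, a replicate block and leaving out each library.

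The comparison and the 29 gene lists (522 of 560 symbols matched) were chosen with earlier results of these data known. Genes named by rule were the 8 called genes that rose most and the 8 that fell most, the 6 of smallest p in each direction (mean FPKM of at least 1 in either group), the 4 members of smallest p in each list, a panel of liver genes and the 4 genes of smallest p for the difference of changes; genes without symbols were mostly left unnamed. Other list members named as examples were chosen after their values were seen. No 2 libraries shared more than 0.569% of counts above 20. Values of some genes are not reported here.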

Additional observations from a re-analysis of the deposited data

Results flagged for a closer look

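The change with age of AABR07070810 differed between early weaned and control livers by 2.27 on the log2 scale in the test of that difference (edgeR adjusted p = 0.0319). It was called higher at day 63 in early weaned livers (log2 change 1.31). In control livers the log2 change was -0.98 and was not called with all 6 libraries (edgeR adjusted p = 0.0614). Without control day 23 library 3 the control change was called lower (log2 change -1.06, edgeR adjusted p = 0.00731). The libraries at day 63 and day 23 did not overlap in either weaning group. The gene was chosen by the difference in these same values, so this adds no support. Of all genes tested in early weaned livers, 54.3% did not overlap. Without control day 23 library 3 the difference was 2.36 (edgeR adjusted p = 0.0162). The call was lost, with 0 genes called in all, under the replicate block and without any one of control day 63 library 1, control day 63 library 3, control day 23 library 1, control day 23 library 2 or early weaned day 23 library 2.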

How the results depend on the processing

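The early weaned count of 5414 genes was 3942 to 6192 under the other tests, filters, normalizations and the single day 23 library, and leaving out single libraries gave 3668 to 4860 in all, 1887 to 2459 higher and 1781 to 2401 lower. The same-numbered early weaned libraries deviated together only weakly (correlations 0.14, 0.08 and 0.074), so the numbers were not taken to pair them; with the replicate block 4671 genes were called and Cd2 lost its call (edgeR adjusted p = 0.0588). Of 476 tested list members 264 were called, and 216 to 252 when single libraries were left out. Over all genes tested 37.2% were called, and the lists were chosen with earlier results of these data known. Of 139 called genes named by rule, 123 stayed past the threshold in the same direction under every alternative that gave them a value. Against day 23 library 1 alone the calls of Por, Prlr, Mt2A and Arntl were lost (edgeR adjusted p = 0.0849, 0.0584, 0.0554 and 0.0656). List counts of 1 to 3 members changed with single libraries in several lists. The difference of changes called 46 genes with DESeq2, 2 with limma, 0 with the replicate block, 2 without control day 23 library 3 and control day 63 library 2, and 0 to 4 when single libraries were left out. The control count of 281 was 2704 with DESeq2, 173 without a filter, 488 with limma, 0 with the replicate block, 5103 without both of those control libraries, and 0 to 5459 when single libraries were left out; the cause was not tested. Depth limits genes near 12 count units per library.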
